A study of Mus musculus with 8 samples.

Results

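Dendritic and myeloid identity genes were followed across 4 groups of DC2.4 cells: 10 genes (Cd24a, Id2, Spi1, Itgax, Itgam, Batf3, Zbtb46, Nfil3, Flt3 and Cebpb) of the 24054 rows in the deposited table. They were chosen by gene symbol, and all 10 were found. DC2.4 is a cloned C57BL/6 mouse line, labelled as dendritic cells, that descends from bone marrow cells immortalised with introduced growth genes. The cells were grown in medium with 10% FBS, and every group was first kept for 4 h in medium with 0.1% FBS. The cells then received 250 PNU/ml of house dust mite extract (HDM), timothy grass extract (Grass) or cat hair extract (Cat) for 4 h. The Untreated group was left without extract, the labels name no vehicle for it, and no exposure time is recorded for it. Each group had 2 libraries of mRNA-enriched RNA, described as independent samples, all from this cell line. A p-value therefore reflects no more than the variation among 8 libraries of a single line.

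Dendritic cells and macrophages arise from bone marrow progenitors whose fate is set by a small group of transcription factors. Spi1 encodes PU.1, the Ets factor that all myeloid lineages need, and Cebpb encodes C/EBPβ, a leucine zipper factor of monocytes, macrophages and emergency granulocyte production. The growth factor receptor Flt3 carries progenitors towards the dendritic lineage, Zbtb46 marks conventional dendritic cells, and Nfil3, Id2 and Batf3 are needed for the cross-presenting conventional type 1 subset (cDC1). On the surface, Itgax encodes CD11c and Itgam CD11b, the alpha chains of a pair of β2 integrins, and Cd24a encodes a small glycosylated protein anchored by lipid that marks cDC1-type cells in culture.

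Depth was 31.94 to 43.32 M reads per library. Values are the deposited ones, which are reads scaled by library and close to RPM (column sums 975215 to 1047501). Rows with a value of at least 0.5 in at least 2 of 8 libraries were tested (11455 rows), with limma on log2(value + 0.1) and Benjamini-Hochberg adjustment over all of them. An adjusted p below 0.05 counted as a call, and fold changes are on that log2 scale. The test covered 9 of the 10 genes, since Flt3 did not reach the minimum value.

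In untreated cells the 10 genes spanned the range from very abundant to barely present, as the plot of levels per kilobase shows. Per kilobase of transcript (GENCODE vM21, longest coding transcript), Cd24a stood at 356 ± 2.3, Cebpb at 139.8 ± 4.9 and Spi1 at 108 ± 3.8 (SD, n = 2 each). Itgam stood at 57.5 ± 0.52, Nfil3 at 32.2 ± 2.0, Id2 at 7.06 ± 0.25 and Batf3 at 4.36 ± 0.42 per kilobase. The lowest levels were those of Itgax at 0.638 ± 0.0055, Zbtb46 at 0.224 ± 0.052 and Flt3 at 0.0039 ± 0.0056 per kilobase. No neighbours in this order overlapped within 1 SD.

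**Figure D1:**
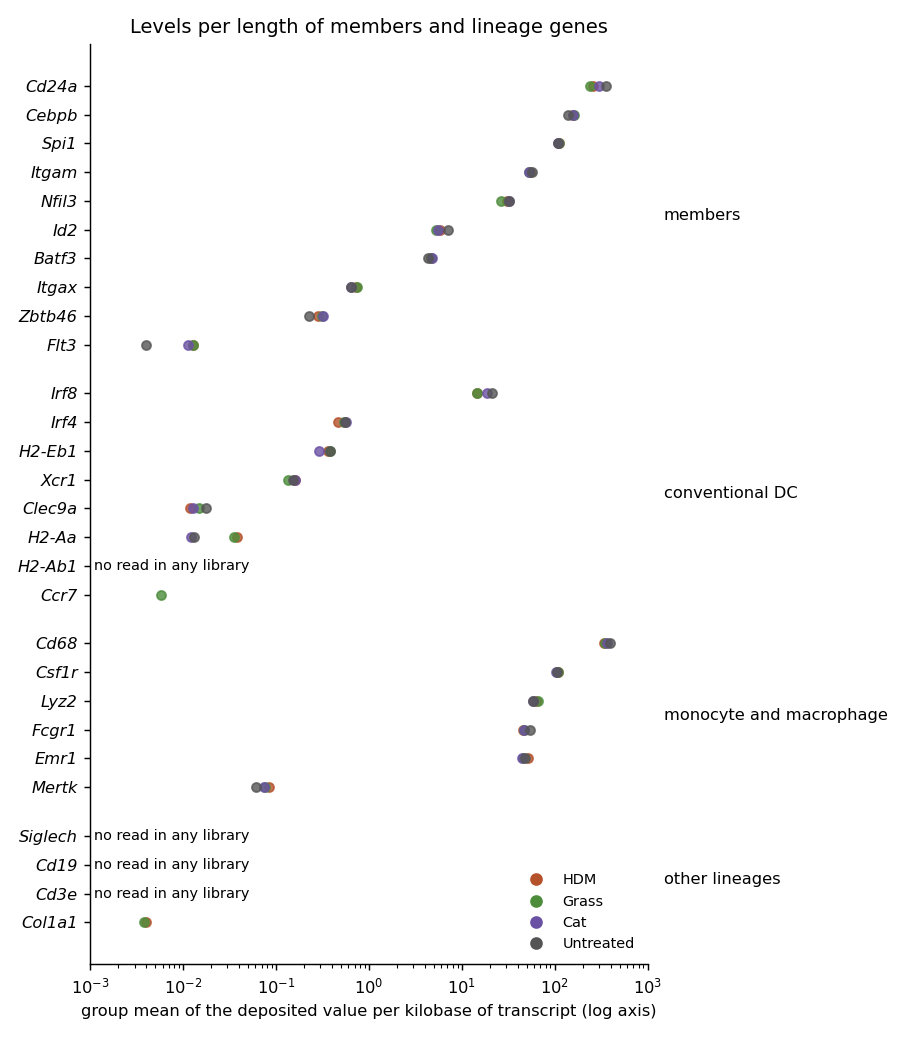
Level per kilobase of the 10 genes and of other lineage genes on a log axis, with a point for each group mean (n = 2) coloured by group. Cd24a, Cebpb, Spi1 and Itgam lie above 50 in untreated cells, and Itgax, Zbtb46 and Flt3 lie below 1.

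Other lineage genes were set beside these levels to check the label of the line. Several defining dendritic genes had few or no reads: Dpp4, Kit, H2-Ab1 and the plasmacytoid gene Siglech had 0 reads in all 8 libraries, Ccr7 had 1, Ciita 6, H2-Aa 8 and the cDC1 receptor Clec9a 14. Xcr1, another cDC1 receptor, had 201 reads in all. By contrast Irf8 stood at 21.1 ± 1.2, the MHC class II chaperone Cd74 at 145 ± 4.0 and the cDC2 and macrophage receptor Sirpa at 190.2 ± 6.6 per kilobase in untreated cells (SD, n = 2 each). Of 23 genes of monocytes and macrophages, 18 reached the test and 0 lacked reads in all 8 libraries. Cd68 stood at 395 ± 2.7, the M-CSF receptor Csf1r at 106 ± 2.1, Fcgr1 at 54.0 ± 3.5 and Emr1, which encodes F4/80, at 47.5 ± 0.92 per kilobase. Mertk had 96 reads in all 8 libraries, Ccr2 and Mrc1 9 each, Marco 2 and Cd163 1. Of the other class II genes, H2-Eb1 had 175 reads in all and H2-DMb1 had 1494. Of 18 conventional dendritic lineage genes 9 reached the test, of 14 cDC1 genes 9 and of 15 cDC2 genes 6. In these lists 5, 2 and 2 genes had no read in any library. The defining markers of the labelled dendritic type were thus at or near 0 in part and present in part. Those of macrophages were mostly present, and the libraries are called DC2.4 here and nothing more specific. Of 14 genes of T, B and NK cells, 7 had no read and the list did not reach the test, with a summed value of 0.0308 to 0.118 in HDM, 0.105 to 0.203 in Grass, 0.114 to 0.166 in Cat and 0.0875 to 0.202 in untreated libraries.

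The extracts were then compared with untreated cells, to ask whether identity genes moved within 4 h. Cd24a, Id2 and Itgam fell and Cebpb rose with each of the 3 extracts, and Nfil3 fell with Grass. With HDM 1 of 9 tested genes rose and 3 fell, beside 31.2% of all tested genes called (9.22% higher and 21.9% lower). With Grass 1 rose and 4 fell, beside 35.8% of all (10.4% higher and 25.4% lower). With Cat 1 rose and 3 fell, beside 18.0% of all (4.34% higher and 13.6% lower). The median log2 fold changes of the 9 were 0.03, 0.06 and 0.02 for HDM, Grass and Cat, against -0.03, -0.04 and -0.03 over all tested genes, and their median sizes were 0.17, 0.23 and 0.15, against 0.10, 0.11 and 0.08. The 3 comparisons share the untreated libraries, so the repeated directions are not independent. The balance of calls over all genes moved with the scaling: of the HDM calls 29.6% were higher as deposited and 65.2% with upper-quartile factors, of the Grass calls 29.1% and 64.8%, and of the Cat calls 24.1% and 55.7%. The HDM count of 4 genes was 2 without HDM 1, without HDM 2, without Untreated 2 and with the DESeq2 test.

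**Figure D2:**
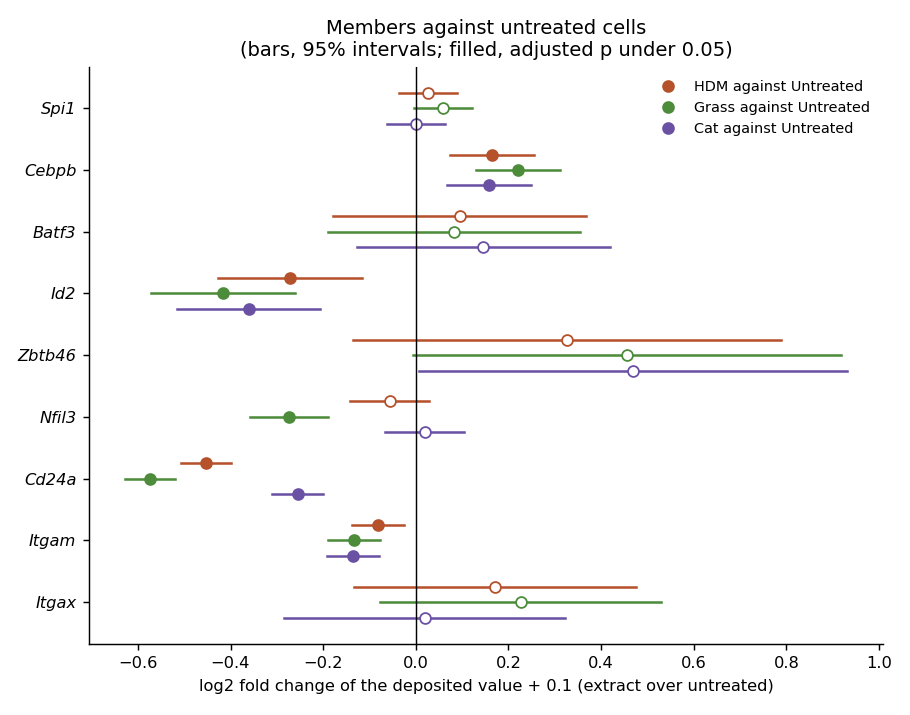
Log2 fold change of the 9 tested genes, extract over untreated, with 95% intervals from limma; filled points have an adjusted p under 0.05. Cd24a, Id2 and Itgam lie left of 0 and Cebpb right of 0 with each extract, and Nfil3 lies left of 0 with Grass.

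Among the myeloid factors, Spi1 was nearly level. Its value was 228 and 220.3 in HDM libraries, 228 and 230.2 in Grass, 217 and 222 in Cat, and 215 and 225 in untreated ones. The HDM and Cat libraries overlapped the untreated ones, and both Grass libraries lay above them. The log2 fold changes were 0.03 with HDM (95% interval -0.04 to 0.09), 0.06 with Grass (-0.0042 to 0.12) and 0.00012 with Cat (-0.06 to 0.06), with limma adjusted p-values of 0.56, 0.14 and 0.999. Grass was called for Spi1 with TMM, DESeq2 and upper-quartile factors, with edgeR on TMM factors, with the DESeq2 test and without Untreated 2, and HDM with upper-quartile factors.

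Cebpb was higher with every extract. It had values of 245 and 227 in HDM libraries, 253 and 237 in Grass, 229 and 241 in Cat, and 205 and 216 in untreated ones. Each of the 6 extract libraries lay above both untreated libraries. The rise was 12.1% with HDM (log2 fold change 0.16, limma adjusted p = 0.0083), 16.5% with Grass (0.22, adjusted p = 0.00090) and 11.6% with Cat (0.16, adjusted p = 0.018), each with an SE of 0.04. The HDM call ended without HDM 1 or without Untreated 1, and the Cat call without Cat 2 or without Untreated 1. Cebpb overlaps Tmem189 on the opposite strand in GENCODE, and the strand setting of the counting is not given in the sources used here, so reads of the pair cannot be told apart. Tmem189 went the other way, with log2 fold changes of -0.11, -0.27 and -0.29 (SE 0.03 each).

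The promoters of 4 genes that changed are shown with a short motif marked in each. They are RefSeq sequences of build GRCm38.p6, from 250 bases before to 50 after the start, while the submitters' notes name mm9 for the deposited values; 8 of the 10 genes matched an entry, all but Cd24a and Spi1. Capitals mark TGACG, the letters shared by CRE sites, in Cebpb (3 matches) and Nfil3 (1 match, which shares 1 base with a GGGCGG match), CCAAT in Id2 (3 matches) and GAGGAA, a PU.1 core, in Itgam (3 matches). Matches were searched on both strands, so capitals can also show the reverse complement, and no other capital stretch overlaps another searched motif. At least 1 match of TGACG occurs in 20.8%, of CCAAT in 37.4% and of GAGGAA in 28.3% of 32851 promoters of the same length. The motif to mark was picked separately for each gene, and other searched motifs were left unmarked. Among those, GGGCGG had 9 matches in Nfil3 and 5 in Cebpb, and occurs at least once in 35.7% of the promoters. A match is a description of these letters only.
Cebpb, chr2:167688665-167688964, plus strand: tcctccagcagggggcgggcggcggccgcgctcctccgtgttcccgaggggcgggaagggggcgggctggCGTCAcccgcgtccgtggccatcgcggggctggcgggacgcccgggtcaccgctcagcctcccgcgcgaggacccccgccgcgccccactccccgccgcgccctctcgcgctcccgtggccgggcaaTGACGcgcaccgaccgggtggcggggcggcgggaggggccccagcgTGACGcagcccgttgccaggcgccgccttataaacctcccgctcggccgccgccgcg
Nfil3, chr13:52980990-52981289, minus strand: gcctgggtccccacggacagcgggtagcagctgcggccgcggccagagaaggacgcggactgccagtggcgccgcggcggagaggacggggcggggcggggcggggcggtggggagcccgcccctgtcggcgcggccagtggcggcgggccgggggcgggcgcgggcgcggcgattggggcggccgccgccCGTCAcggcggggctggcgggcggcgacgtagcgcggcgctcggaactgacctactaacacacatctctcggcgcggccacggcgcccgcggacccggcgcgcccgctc
Id2, chr12:25096043-25096342, minus strand: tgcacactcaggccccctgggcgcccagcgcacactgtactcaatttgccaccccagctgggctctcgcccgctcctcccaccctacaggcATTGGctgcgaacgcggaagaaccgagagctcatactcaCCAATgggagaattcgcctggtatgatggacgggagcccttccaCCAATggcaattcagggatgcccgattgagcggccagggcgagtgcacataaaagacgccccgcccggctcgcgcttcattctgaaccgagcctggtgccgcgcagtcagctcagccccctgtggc
Itgam, chr7:128062390-128062689, plus strand: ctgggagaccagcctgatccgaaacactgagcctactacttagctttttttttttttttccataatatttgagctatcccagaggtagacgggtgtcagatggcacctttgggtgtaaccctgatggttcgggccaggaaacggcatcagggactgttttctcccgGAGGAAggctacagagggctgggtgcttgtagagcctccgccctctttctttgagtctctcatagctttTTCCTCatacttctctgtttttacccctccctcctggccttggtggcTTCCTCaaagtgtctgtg

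In the rest of the C/EBP family, Cebpa, which drives the granulocyte and monocyte progenitor stage, rose with each extract. Its value was 63.0 and 62.5 with HDM, 69.1 and 68.0 with Grass, 67.9 and 66.4 with Cat, and 56.2 and 53.3 in untreated libraries. The log2 fold changes were 0.20, 0.32 and 0.29 (SE 0.04 each, limma adjusted p = 0.00030, 3.2e-07 and 7.5e-06), and all 19 alternative settings kept these calls. Of the 6 other family members tested, HDM raised 2, Grass 1 and Cat 1, beside 9.22%, 10.4% and 4.34% of all tested genes called higher. The list's median log2 fold change was 0.08, 0.06 and 0.08, against -0.03, -0.04 and -0.03 for all genes. The second with HDM was Ddit3, the stress factor CHOP (0.33, SE 0.08), a call that ended without HDM 2. Without Untreated 2 the counts with Grass and Cat were 2 each, and without Untreated 1 another member was called lower with each.

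The factors of the cDC1 program were at low or moderate levels and did not move together. Batf3 had values of 3.56 and 3.91 in HDM libraries, 3.66 and 3.74 in Grass, 3.69 and 4.06 in Cat, and 3.26 and 3.73 in untreated ones, from 113 to 162 reads. The groups overlapped. Its log2 fold changes were 0.09, 0.08 and 0.15 (SE 0.13 each), with 95% intervals of -0.18 to 0.37, -0.19 to 0.36 and -0.13 to 0.42, and no call.

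Id2, which binds E proteins and keeps them off DNA, fell with every extract. It stood at 11.7 and 11.3 in HDM libraries, 10.5 and 10.2 in Grass, 11.0 and 10.6 in Cat, and 13.5 and 14.2 in untreated ones, from 366 to 497 reads. All 6 extract libraries were below both untreated libraries. The log2 fold change was -0.27 with HDM (limma adjusted p = 0.0073), -0.42 with Grass (adjusted p = 0.00010) and -0.36 with Cat (adjusted p = 0.0013), with an SE of 0.08 each. The HDM call ended with the DESeq2 test, without HDM 2 and without Untreated 2. Among 5 tested Id and E protein genes, 1 fell with HDM (Tcf4, the E protein of plasmacytoid dendritic cells, -0.11, SE 0.04) and 1 with Grass (Id3, -0.53, SE 0.15). With HDM, Grass and Cat 21.9%, 25.4% and 13.6% of all tested genes were called lower, and the counts did not exceed those shares. List medians were -0.11, -0.10 and -0.0051 for HDM, Grass and Cat, against -0.03, -0.04 and -0.03 over all tested genes. Tcf4 was not called without HDM 1, HDM 2 or Untreated 2, with the other scalings or with DESeq2, and Id3 not without Grass 1 or with DESeq2.

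Nfil3, a leucine zipper repressor that acts upstream of Id2 in cDC1 development, fell with Grass. It had values of 63.2 and 62.3 in HDM libraries, 54.0 and 53.9 in Grass, 66.0 and 66.2 in Cat, and 62.4 and 68.2 in untreated ones. Both Grass libraries and HDM 2 lay below both untreated libraries, and HDM 1 and the Cat libraries lay between them. The log2 fold change with Grass was -0.27 (SE 0.04, limma adjusted p = 9.8e-06), and all 19 alternatives called it. HDM gave -0.06 (95% interval -0.14 to 0.03) and Cat 0.02 (-0.07 to 0.10), and HDM was called only without Untreated 1. The PAR leucine zipper genes Dbp and Tef, activators that compete with Nfil3 for D-box sites, rose with HDM and Grass. Dbp had values of 4.39 and 3.78 with HDM, 5.21 and 5.11 with Grass, 3.15 and 2.87 with Cat, and 3.06 and 2.54 in untreated libraries. Its log2 fold changes were 0.53, 0.87 and 0.11 (SE 0.14 each), and those of Tef 0.27, 0.43 and 0.13 (SE 0.06 each). Both passed with HDM and Grass (limma adjusted p = 0.0042 and 2.0e-05 for Dbp, 0.0010 and 2.9e-06 for Tef), and Cat was not called. Over all tested genes 9.22% and 10.4% were called higher with HDM and Grass. The list medians were 0.40 and 0.65, against -0.03 and -0.04 over all tested genes, and the list's other gene, Hlf, did not reach the test. The HDM call of Dbp ended without HDM 1 or Untreated 2 and that of Tef without HDM 2. The authors' deposited tables list Dbp with a fold of 1.51 for HDM and 1.90 for Grass.

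Zbtb46, the factor that marks conventional dendritic cells, had 34 to 71 reads per library. Its values were 1.27 and 1.75 in HDM libraries, 1.44 and 1.87 in Grass, 1.96 and 1.41 in Cat, and 1.38 and 0.992 in untreated ones. The replicates within a group differed more, relative to their level, than in the other 8 tested genes. The log2 fold changes were 0.33 (95% interval -0.14 to 0.79), 0.45 (-0.0071 to 0.92) and 0.47 (0.0070 to 0.93), with limma adjusted p-values of 0.29, 0.12 and 0.16, and none was called. Both Grass and both Cat libraries lay above both untreated ones, on low counts, while the HDM libraries overlapped the untreated ones. At this depth a change of that size in Zbtb46 did not pass the adjusted threshold, and without Untreated 1 the Grass difference was called.

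Flt3 had 4 and 0 reads in HDM libraries, 3 and 1 in Grass, 0 and 3 in Cat, and 1 and 0 in untreated ones, 12 in all. No difference between groups was detectable at this depth. A count of 3 reads in a library, the limit that a count of 0 allows, correspond to a value of 0.0677 to 0.0923. Genes that carry or restrain the Flt3 signal passed the filter. Of 11 tested, 1 rose and 5 fell with HDM, 1 rose and 5 fell with Grass, and 5 fell with Cat, with median log2 fold changes of -0.07, -0.08 and -0.11, against -0.03, -0.04 and -0.03 over all tested genes. Over all tested genes 21.9%, 25.4% and 13.6% were called lower and 9.22%, 10.4% and 4.34% higher. Sh2b3, an adaptor that restrains Flt3 and related receptors, fell with each extract (log2 fold changes -0.58, -0.53 and -0.20, SE 0.03 each), a call kept in all 19 alternatives. Stat3, a transcription factor downstream of Flt3, fell too (-0.24, -0.18 and -0.15, SE 0.04 each), with the Cat call lost without Cat 2 or Untreated 2 and with DESeq2. The adaptor Gab2 was at -0.16, -0.24 and -0.22 (SE 0.05 each), and its HDM call ended without HDM 2 or Untreated 2, with upper-quartile factors and with DESeq2. Socs2 rose with HDM and Grass (0.57 and 0.52, SE 0.16 each), but not without Untreated 1, without HDM 1 for HDM, without Grass 2 for Grass or with DESeq2. The count lower with HDM was 3 without HDM 2 or Untreated 2, with upper-quartile factors and with DESeq2, and that with Cat was 2 without Cat 2 and 3 with DESeq2.

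**Figure D3:**
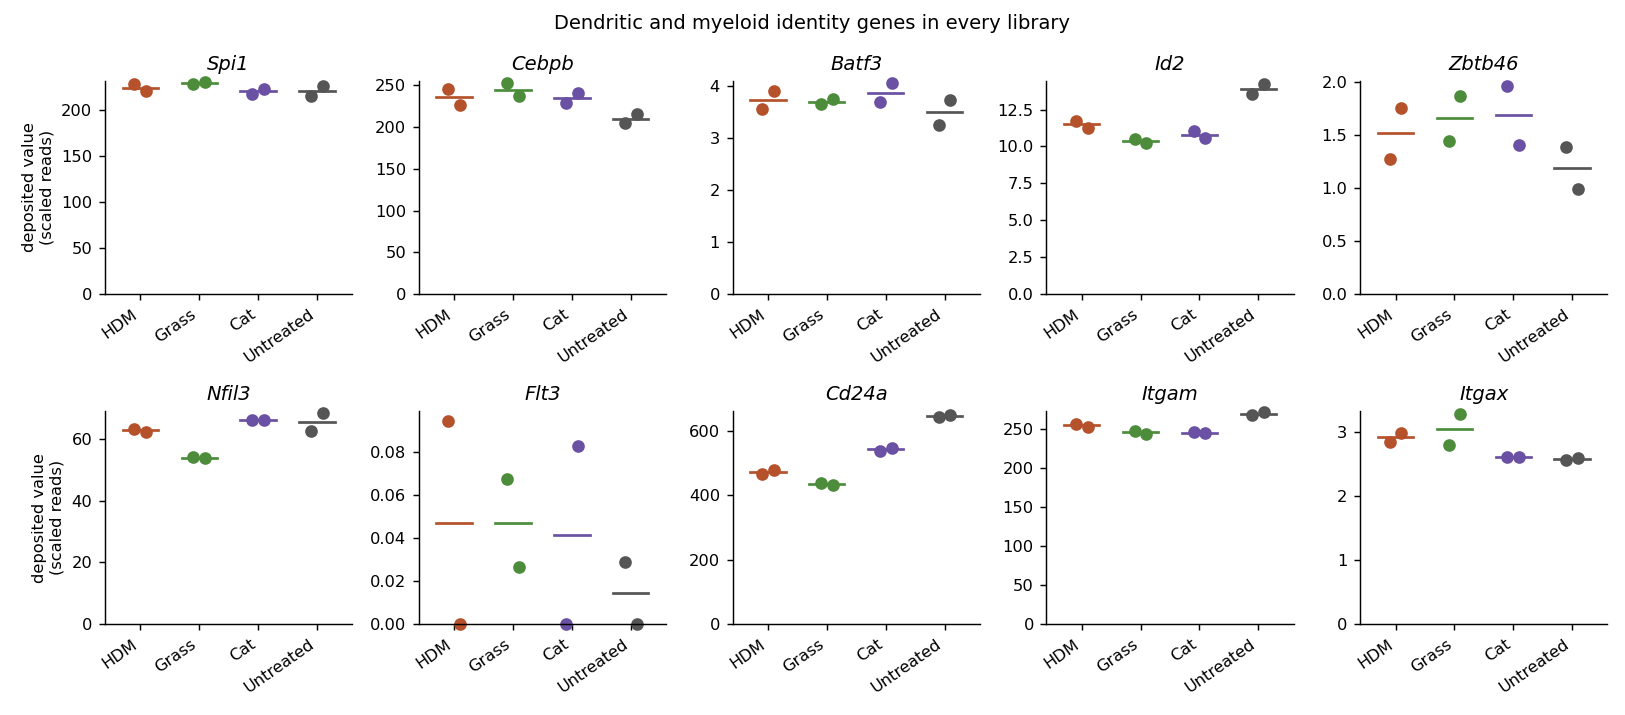
Deposited value of the 10 genes in every library, with a point per library and a bar at the group mean. The extract libraries of Cd24a, Id2 and Itgam lie below both untreated libraries and those of Cebpb above, while Flt3 stays near 0.

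On the surface, Cd24a changed the most of the 9 tested genes with HDM and Grass. It had values of 466 and 478 in HDM libraries, 439 and 431 in Grass, 538 and 546 in Cat, and 644 and 649.9 in untreated ones, from 15552 to 22344 reads. The 4 groups did not overlap. The level fell by 27.0% with HDM (log2 fold change -0.45), fell by 32.8% with Grass (-0.57) and fell by 16.2% with Cat (-0.26), each with an SE of 0.03. The limma adjusted p-values were 1.3e-12, 2.1e-14 and 3.0e-07, and each call was kept in all 19 alternatives. Near-identical copies of Cd24a lie elsewhere in the mouse genome, and how reads were shared among them is not given, so its absolute level is uncertain.

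Itgam, the CD11b chain that joins β2 integrin to bind complement and fibrinogen, fell by a smaller amount. Its values were 256 and 253 in HDM libraries, 247 and 243 in Grass, 246 and 244 in Cat, and 267 and 271 in untreated ones. All 6 extract libraries were below both untreated libraries. The log2 fold changes for HDM, Grass and Cat were -0.08, -0.13 and -0.14 (SE 0.03 each, limma adjusted p = 0.025, 0.00044 and 0.0010). The HDM call ended with every other scaling, with edgeR on TMM factors, with the DESeq2 test and without HDM 1, HDM 2 or Untreated 2, and the Grass call with upper-quartile factors. In the annotation Itgam overlaps Gm49368, which is not used here.

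Itgax, the CD11c chain, was low, with 89 to 125 reads per library. It stood at 2.85 and 2.98 in HDM libraries, 2.80 and 3.29 in Grass, 2.61 and 2.62 in Cat, and 2.57 and 2.60 in untreated ones. All 6 extract libraries lay above both untreated ones, on low counts. The log2 fold changes were 0.17 (95% interval -0.13 to 0.48), 0.23 (-0.08 to 0.53) and 0.02 (-0.28 to 0.32), and none was called in any setting. Of 6 other tested genes of β2 integrins and their ligands, 1 rose and 4 fell with HDM, 2 fell with Grass and 2 with Cat, with list medians of -0.12, -0.05 and -0.12 (all tested genes: 21.9%, 25.4% and 13.6% lower, medians -0.03, -0.04 and -0.03). Tln1, the talin that activates integrins, fell with each extract (-0.25, -0.25 and -0.16, SE 0.03 each). Itgb2, the shared β2 chain, fell with HDM and Cat (-0.12 and -0.19, SE 0.04 each) and was at -0.05 with Grass, and its HDM call ended without HDM 2 or Untreated 1 and with the other scalings. The HDM count lower was 2 without HDM 1 or Untreated 1 and 1 or 2 with the other scalings, and Icam1, the gene that rose, was not called without HDM 1 or Untreated 2.

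The extracts were also set against each other. Cd24a was higher with HDM than with Grass by 0.12 on the log2 scale (SE 0.03, limma adjusted p = 0.011), and lower with HDM than with Cat (-0.20, adjusted p = 7.3e-06). It was lower with Grass than with Cat (-0.32, adjusted p = 3.8e-09). Nfil3 was higher with HDM than with Grass by 0.22 (SE 0.04, adjusted p = 0.0023), and lower with Grass than with Cat (-0.29, adjusted p = 1.8e-05). These made 2 of 9 for HDM against Grass, beside 2.31% of all tested genes (1.69% higher and 0.62% lower), 1 of 9 for HDM against Cat, beside 7.76% (2.94% higher and 4.82% lower), and 2 of 9 for Grass against Cat, beside 11.8% (3.58% higher and 8.23% lower). For HDM against Grass the count was 0 without HDM 1 or Grass 2, and 1 without HDM 2 or Grass 1. Dbp was higher with Grass than with Cat by 0.76 (SE 0.14, adjusted p = 0.00039), and Irf8 was lower with HDM than with Cat (-0.35) and lower with Grass than with Cat (-0.36, SE 0.04 each).

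Genes of the dendritic subsets that these factors act on were counted next, as in the plot of counts by list. Of 9 tested cDC1 genes, 5 fell under HDM, 7 under Grass and 6 under Cat, with median log2 fold changes of -0.32, -0.27 and -0.20. Over all tested genes 21.9%, 25.4% and 13.6% were called lower, and the medians were -0.03, -0.04 and -0.03. Irf8, the cDC1 partner of Batf3, had values of 42.0 and 41.2 with HDM, 41.9 and 41.2 with Grass, 52.8 and 53.6 with Cat, and 57.7 and 62.6 in untreated libraries. Its log2 fold changes were -0.53, -0.53 and -0.18 (SE 0.04 each), and the Cat call ended without Cat 1 or Untreated 2 and with DESeq2. The cell adhesion molecule Cadm1 fell too (-0.32, -0.34 and -0.22, SE 0.04 each), as did Wdfy4, needed for cross-presentation (-0.17, -0.14 and -0.13, SE 0.03 each). The Wdfy4 call with Cat ended without Cat 2 and that with Grass with upper-quartile factors. The Cat count was 2 without Cat 2, and 3 without Untreated 2 or with DESeq2, and the Grass count was 4 with DESeq2. Among 6 tested cDC2 genes, 2 rose and 2 fell with HDM, 2 fell with Grass and 3 with Cat (medians -0.05, -0.05 and -0.09, beside the same shares and medians of all tested genes). Sirpa and Zeb2 fell with each extract. Sirpa was at -0.16, -0.18 and -0.15 (SE 0.03 each) and Zeb2, a repressor that favours cDC2 over cDC1 fate, at -0.37, -0.30 and -0.20 (SE 0.04 each). The pair that rose with HDM, Notch2 and Clec10a, were both uncalled without HDM 1, and 1 of them rose without Untreated 1, without Untreated 2 or with DESeq2.

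**Figure D4:**
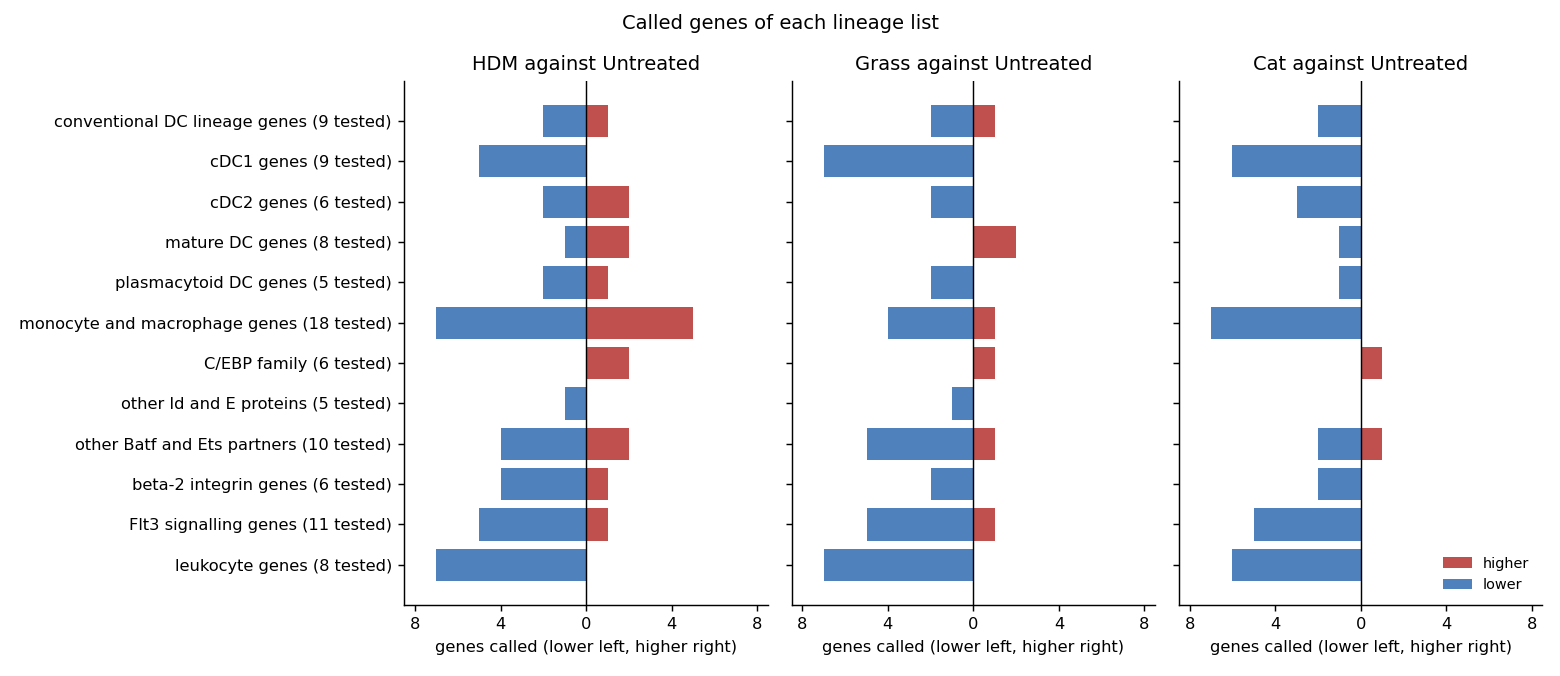
Number of tested genes called higher or lower in each list against untreated cells, by extract. The cDC1 and leukocyte lists have calls on the lower side with each extract, and the monocyte and macrophage list has calls on both sides with HDM and Grass.

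Of 18 tested monocyte and macrophage genes, 5 rose and 7 fell with HDM, 1 rose and 4 fell with Grass, and 7 fell with Cat, with medians of 0.03, -0.04 and -0.06. Over all tested genes 9.22%, 10.4% and 4.34% were called higher and 21.9%, 25.4% and 13.6% lower, with medians of -0.03, -0.04 and -0.03, and the Grass counts did not exceed those shares. Emr1, Cx3cr1, Lyz2, C1qa and Msr1 rose with HDM, and Lyz2 rose with Grass. The lysosomal gene Cd68 fell (-0.23, -0.19 and -0.12, SE 0.03 each), with the Cat call lost without Cat 1 or with upper-quartile factors. The Fc receptor Fcgr1 fell as well (-0.26, -0.19 and -0.20, SE 0.04 each). Mpeg1, which encodes a pore-forming protein of macrophages, fell with HDM and Cat (-0.24 and -0.32, SE 0.05 each). With HDM the count higher was 1 without HDM 1, 2 without HDM 2, 3 without Untreated 2 or with DESeq2 and 8 with upper-quartile factors. The HDM count lower was 4 without HDM 2, with upper-quartile factors and with DESeq2. With Grass the count higher was 2 without Grass 1, with TMM or DESeq2 factors or with DESeq2, and 3 without Untreated 1, and upper-quartile factors gave 5 higher and 2 lower. General leukocyte genes fell: 7 of 8 tested with HDM, 7 with Grass and 6 with Cat, with medians of -0.21, -0.24 and -0.18, beside 21.9%, 25.4% and 13.6% of all tested genes called lower and medians of -0.03, -0.04 and -0.03. Ptprc, which encodes CD45, had values of 274 and 268 with HDM, 260.0 and 256 with Grass, 271 and 272 with Cat, and 329.7 and 324 in untreated libraries. Its log2 fold changes were -0.27, -0.34 and -0.27 (SE 0.03 each), all kept in 19 alternatives. In bulk libraries of a single line, a fall in part of the cells and a smaller fall in every cell cannot be told apart.

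**Figure D5:**
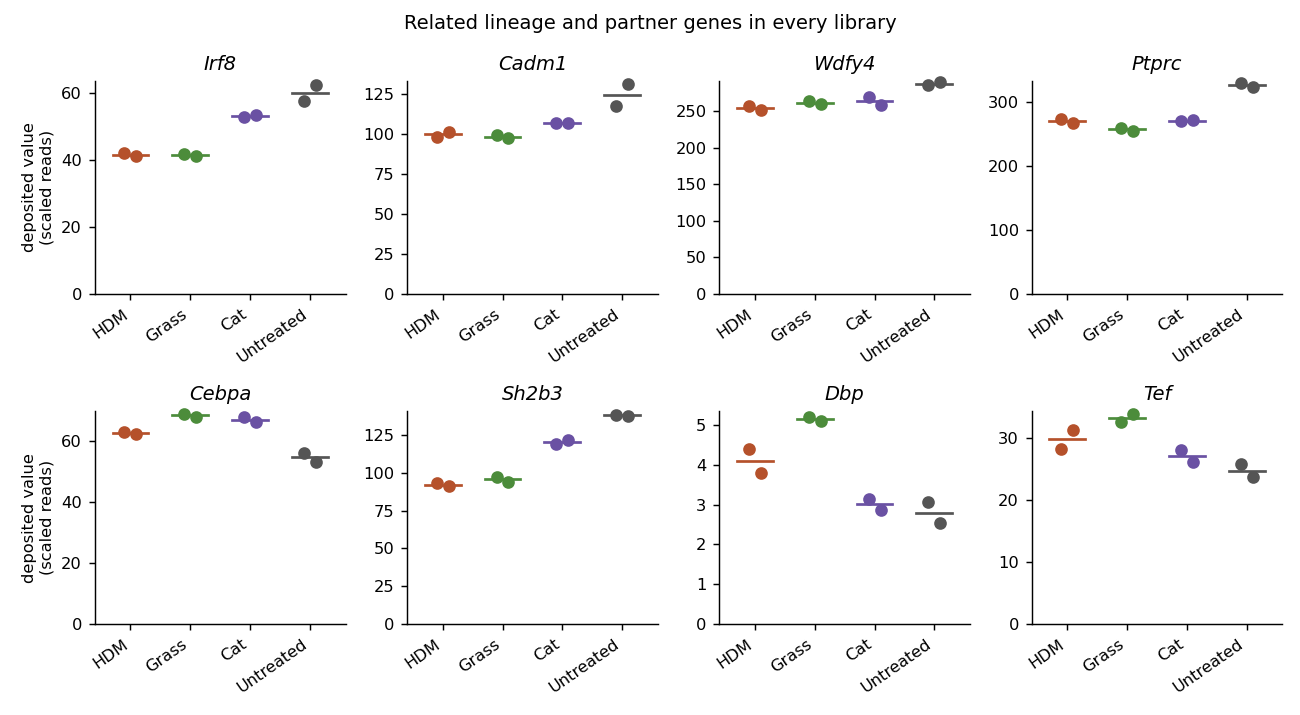
Deposited value of 8 related genes in every library, with a point per library and a bar at the group mean. Irf8, Cadm1, Wdfy4, Ptprc and Sh2b3 are highest in untreated libraries, Cebpa is lowest there, and Dbp and Tef are highest with Grass.

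Counts of the remaining lists stand beside 31.2%, 35.8% and 18.0% of all tested genes called for HDM, Grass and Cat, and many of them changed with the library left out. For dendritic maturation genes (8 tested), 2 rose and 1 fell with HDM, 2 rose with Grass and 1 fell with Cat. Cd40, a co-stimulatory receptor, rose with HDM (0.38, SE 0.13) but was not called without HDM 1, HDM 2 or Untreated 2. Cd83 with Grass (0.65, SE 0.26) was not called without any 1 of HDM 1, HDM 2, Grass 1, Grass 2, Cat 2, Untreated 1 or Untreated 2. Neither Cd40 with HDM nor Cd83 with Grass was called with the DESeq2 test. Marcks fell with HDM and Cat (-0.23 and -0.19, SE 0.06 each), but not without HDM 2 for HDM, and not for Cat without any 1 of the 8 libraries. The HDM call of Marcks also ended with upper-quartile factors and with the DESeq2 test. Its Cat call also ended with the other scalings, no filter, edgeR on TMM factors, the DESeq2 test and the replicate block. Of 9 tested conventional dendritic lineage genes, 1 rose and 2 fell with HDM, 1 rose and 2 fell with Grass, and 2 fell with Cat. Of these, Bcl6, a repressor used in dendritic development, fell with each extract (-0.37, -0.33 and -0.17, SE 0.04 each). Naaa rose with HDM and Grass (0.27 and 0.32, SE 0.07 each), and its HDM call ended without HDM 2 or Untreated 2. Csf2ra fell with HDM (-0.15, SE 0.05) and Cd74 with Grass and Cat (-0.10 and -0.14, SE 0.03 each). The list's count lower was 1 with HDM and 1 with Grass under the other scalings, no filter, edgeR on TMM factors and the DESeq2 test. With Cat it was 1 under the DESeq2 test. The calls of Csf2ra with HDM (without HDM 2 or Untreated 1) and of Cd74 with Grass (without Grass 1, Grass 2 or Untreated 2) and Cat (without Cat 1) did not hold. Bst2, a plasmacytoid and interferon-inducible gene, fell with each extract (-0.37, -0.34 and -0.37, SE 0.05 each). It was 1 of 2 plasmacytoid genes of 5 tested that fell with HDM and with Grass and the single one with Cat, while Runx2 rose with HDM (0.24, SE 0.05). The other falls, Tcf4 with HDM and Ptprs with Grass (-0.10, SE 0.04), were lost with the other scalings, Ptprs also without HDM 1, HDM 2, Grass 1 or Untreated 1. Without Cat 2, Untreated 1 or Untreated 2 the Cat count was 2. Among 10 tested Batf and Ets partners, 2 rose and 4 fell with HDM, 1 rose and 5 fell with Grass, and 1 rose and 2 fell with Cat. Irf8, also counted among the cDC1 genes, was among these falls with each extract. Some genes are in more than 1 list (193 entries, 183 distinct genes), so the counts of different lists are not independent. Elf1 fell with each extract (-0.22, -0.22 and -0.16, SE 0.03 each), and Runx1 fell with Grass (-0.27, SE 0.04). The count higher with HDM was 1 without HDM 1, HDM 2 or Untreated 1, that with Grass 2 without Untreated 2, and the count lower with Cat 1 without Cat 1 or Untreated 2. Of 2 tested neutrophil genes, Cxcr2 fell with Grass (-0.35, SE 0.09), but not without Untreated 1 or Untreated 2. Its call also ended with upper-quartile factors and with edgeR on TMM factors.

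The genes whose profiles over the 8 libraries were most like these are given as a description. Nearest to Cd24a were Myef2 and Hk2 (Pearson r 0.998 each over 8 libraries) and Ralgapa2 (0.995), out of 9596 genes, of which 10.7% had an r over 0.9. Nearest to Id2 were Vcpip1 (0.997), AI607873 (0.993) and Flrt2 (0.988), with 4.29% over 0.9. Itgam was nearest to Sp3 (0.993), Nfil3 to Dlst (0.980) and Cebpb to E130308A19Rik (0.974). The points of these correlations share their libraries and their scaling.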

How the data were processed

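RNA-seq values were taken from a deposited table of 24054 genes in 8 libraries. Although named raw counts, its values are a depth-scaled signal: per the file values, dividing a library's values by its own step gave whole reads for 100% of them (to within 9.9e-10), so the deposited signal could be turned back into reads. Tools in the submitters' processing notes are RSEM 1.2.15, Bowtie2 2.1.0 and edgeR, the build is mm9, no roles are given, and the strand setting is not given in the sources used here. The authors' deposited tables of changed genes hold a signed linear fold (a score per gene), a deposited p-value and an FDR, list 53 genes for Cat, 212 for HDM and 223 for Grass, all past a fold of 1.5, and list none of the 10 genes.

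Tests used limma 3.58.1 in R 4.3.3 with trend and robust settings on all 8 libraries, with 4 residual degrees of freedom. The fit also borrows spread across genes, so its p-values and intervals rest in part on that shared spread. Values entered as log2(value + 0.1), with a minimum of 0.5 in 2 libraries and Benjamini-Hochberg adjustment over 11455 rows. As alternatives, TMM, DESeq2 and upper-quartile factors, other pseudocounts and filters, edgeR 4.0.16, DESeq2 1.42.0, a replicate block and each library left out were run. EdgeR on recovered reads with the deposited scaling was added after the data were seen and called 3560, 4151 and 2015 genes with HDM, Grass and Cat. The script was checked on simulated data. The 10 genes, gene lists and tests were chosen with earlier results of these data known. Named list genes are up to 4 per list with the smallest p among called genes. Tmem189, Icam1, the monocyte and macrophage genes that rose and the markers of the label check were named after their values were seen. A gene of the monocyte list is not reported here and is in no count of that list. Lengths come from GENCODE vM21, and coordinates are GRCm38 (not the mm9 of the files).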

Additional observations from a re-analysis of the deposited data

How the results depend on the processing

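Of the alternative settings, TMM, DESeq2 and upper-quartile factors, other pseudocounts, no filter, a filter of 2, edgeR, the DESeq2 test and each library left out, none turned the direction of a called gene. The number of genes called with HDM was 2 with the DESeq2 test instead of 4, and the cause was not tested. With 1 library left out it ranged from 2 to 4 with HDM, 5 to 6 with Grass, 3 to 4 with Cat, 0 to 2 for HDM against Grass, and stayed at 1 for HDM against Cat and 2 for Grass against Cat. Over all genes, 3569, 4102 and 2060 calls with HDM, Grass and Cat compared with 1945, 2419 and 1005 under the DESeq2 test. Replicate numbers are shared between groups, and the labels do not say whether they mark pairs. Correlations of same-numbered deviations lay between -0.08 and 0.13, which cannot show how the libraries were prepared. A fit with the replicate number as a block called 4, 5, 4, 2, 1 and 2 genes in the 6 comparisons, the same as without it. Depth limits Flt3, Zbtb46, Itgax and Batf3.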
